A study of Mus musculus with 8 samples.

Results

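The genes described here encode the parts of antibodies: the variable (V) segments of the heavy, kappa and lambda chains, the constant regions of those chains, and the J chain that links antibody units into polymers. They were taken by name, as every annotated Ighv, Igkv, Iglv and Iglc gene together with Igkc, Igha, Ighm, Ighd, Ighg1, Ighg2b, Ighg2c, Ighg3 and Jchain. Of the 54838 gene IDs in the count tables, 361 carried such a name, and 200 of these had at least 1 read in the 8 libraries. The 200 were 95 of 185 Ighv genes, 90 of 160 Igkv genes, all 3 Iglv genes, all 7 heavy chain constant genes, Igkc, 3 of 4 lambda constant genes and Jchain. Pseudogenes made up 70 of the 185 Ighv and 60 of the 160 Igkv genes, and of these 6 and 4 had reads.

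A B cell joins V segments to shorter segments by cutting its own DNA, so each B cell and its descendants carry a fixed heavy and light chain V choice, while the heavy chain constant region can later be exchanged by class switching from IgM and IgD to IgG, IgA or IgE. Plasma cells, the end stage of this lineage, hold very large amounts of immunoglobulin RNA. Plasma cells that make IgA are typical of mucosal tissue, above all the gut, whose blood drains to the liver, and polymeric IgA and IgM both carry the J chain.

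All 8 libraries came from livers of male wild-type C57BL/6J mice that were given diethylnitrosamine (DEN), a liver carcinogen, by intraperitoneal injection at day 15 and were then fed HFD + SW, terms that the labels do not spell out. Collection was at 30 weeks, which the labels state once for the diet and once counted from injection. There were 4 tumour pieces and 4 non-tumour pieces. Both groups therefore share the carcinogen and the diet, and livers without either were not analysed here. No label ties a piece to a mouse or states that each piece had its own mouse. The p-values below thus measure only the spread between these samples.

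Some libraries were nearly the same. Over all genes with 20 or more reads in a pair, a chi-square divided by its degrees of freedom gave 1.58 to 3.28 between tumour 2 and 4 and among non-tumour 2, 3 and 4, against 71.7 to 165 in the other 24 pairs. These libraries were summed and counted once, which left 3 tumour profiles (tumour 1, tumour 2/4 and tumour 3) and 2 non-tumour profiles (non-tumour 1 and non-tumour 2/3/4); an exact permutation test of 3 against 2 cannot give a two-sided p below 0.2. Library totals ran from 15446690 to 21977052 counts. Albumin (Alb), the defining product of hepatocytes, took 7.91% to 13.9% of counts in tumour libraries and 7.56% to 7.89% in non-tumour libraries.

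Immunoglobulin RNA was a small part of every library, and its constant region RNA was more abundant in the tumour profiles. Members took 0.00822% to 0.0190% of counts in the 4 tumour libraries and 0.00593% to 0.00906% in the 4 non-tumour libraries, with tumour 3 below non-tumour 1. The summed constant region level was 116, 126 and 75.3 CPM (counts scaled to library size, on TMM-adjusted totals) in tumour 1, tumour 2/4 and tumour 3, against 67.9 and 48.7 CPM in non-tumour 1 and non-tumour 2/3/4. The 3 tumour profiles lay above both non-tumour profiles, with the smallest gap between tumour 3 and non-tumour 1. The mean was 106 ± 26.8 CPM in tumour profiles and 58.3 ± 13.5 CPM in non-tumour profiles (SD, n = 3 and n = 2), a difference of 0.84 in mean log2 CPM. In bulk tissue, more cells of the B lineage and more RNA per such cell cannot be told apart.

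Igha, the constant region of IgA, had the largest fitted fold change of the constant region genes tested. It stood at 41.6, 50.1, 15.4 and 53.4 CPM in tumour 1 to 4, against 13.2, 13.0, 10.5 and 11.8 CPM in non-tumour 1 to 4. Tumour 1, 2 and 4 were far above the rest, tumour 3 was only just above the highest non-tumour library, and the groups did not overlap. This gave a log2 fold change of 1.54 ± 0.49 (SE), with an unadjusted p of 0.0188 and an adjusted p of 0.995 in edgeR's quasi-likelihood test over the 5 profiles. Cholangiocyte markers were also high in tumour 1 and tumour 2/4, but highest in tumour 1 and, in tumour 3, below both non-tumour profiles. The 7 genes summed to 403, 193 and 22.7 CPM in tumour 1, tumour 2/4 and tumour 3. The sums were 35.2 and 36.8 CPM in non-tumour 1 and non-tumour 2/3/4. Of the 7 genes, 0 were at 0 in all libraries. The part of these markers in the Igha level was not tested.

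Igkc, the kappa light chain constant region, was likewise highest in tumour 1, 2 and 4, at a smaller ratio. It stood at 41.4, 46.1, 27.9 and 44.9 CPM in tumour 1 to 4, against 18.2, 19.9, 19.6 and 18.4 CPM in non-tumour 1 to 4. Every tumour library was above every non-tumour library, and the non-tumour libraries were close together. Its log2 fold change was 1.03 ± 0.24 (SE; edgeR unadjusted p = 0.00472, adjusted p = 0.995). Per kilobase of exon, Igkc had the highest mean level of the constant genes, 71.9 CPM per kb in tumour profiles and 35.3 CPM per kb in non-tumour profiles.

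Jchain, whose product joins IgA and IgM into polymers, stood at 11.8, 12.6, 5.05 and 13.2 CPM in tumour 1 to 4, against 3.92, 4.95, 3.65 and 3.34 CPM in non-tumour 1 to 4. The pattern was that of Igha: high in tumour 1, 2 and 4, and in tumour 3 barely above non-tumour 2. On the log2 scale Jchain was 1.33 ± 0.42 higher in tumour (SE; edgeR unadjusted p = 0.0180, adjusted p = 0.995). Per kilobase, there were 30.0, 26.4 and 34.8 units of Jchain for each 100 of Igha in tumour 1, tumour 2/4 and tumour 3, against 31.6 and 36.0 in non-tumour 1 and non-tumour 2/3/4.

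Ighm, the constant region of IgM, did not separate the groups. It stood at 22.7, 18.0, 20.4 and 19.3 CPM in tumour 1 to 4, against 28.2, 11.7, 10.2 and 9.89 CPM in non-tumour 1 to 4. Non-tumour 1 had the highest level of all 8 libraries, while non-tumour 2, 3 and 4 had the lowest. The log2 fold change was 0.10 ± 0.39 (SE; edgeR adjusted p = 0.997), and it was -0.45 ± 0.22 without non-tumour 2/3/4 and 0.95 ± 0.24 without non-tumour 1. Non-tumour 1 also stood apart in macrophage and sinusoidal endothelial genes. The 10 Kupffer cell markers summed to 332, 321 and 309 CPM in the tumour profiles. Their sums were 705 and 320 CPM in non-tumour 1 and non-tumour 2/3/4, and no marker of the list was at 0 in all libraries. The 10 leucocyte and macrophage markers summed to 453 CPM in non-tumour 1, against 119 to 211 CPM in the other profiles. For the 7 sinusoidal endothelial markers the sum was 314 CPM in non-tumour 1, against 149 to 199 CPM in the others. The 7 stellate cell markers did not set it apart, at 249 CPM against 228 to 257 CPM. The part of these markers in the Ighm level was not tested.

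**Figure D1:**
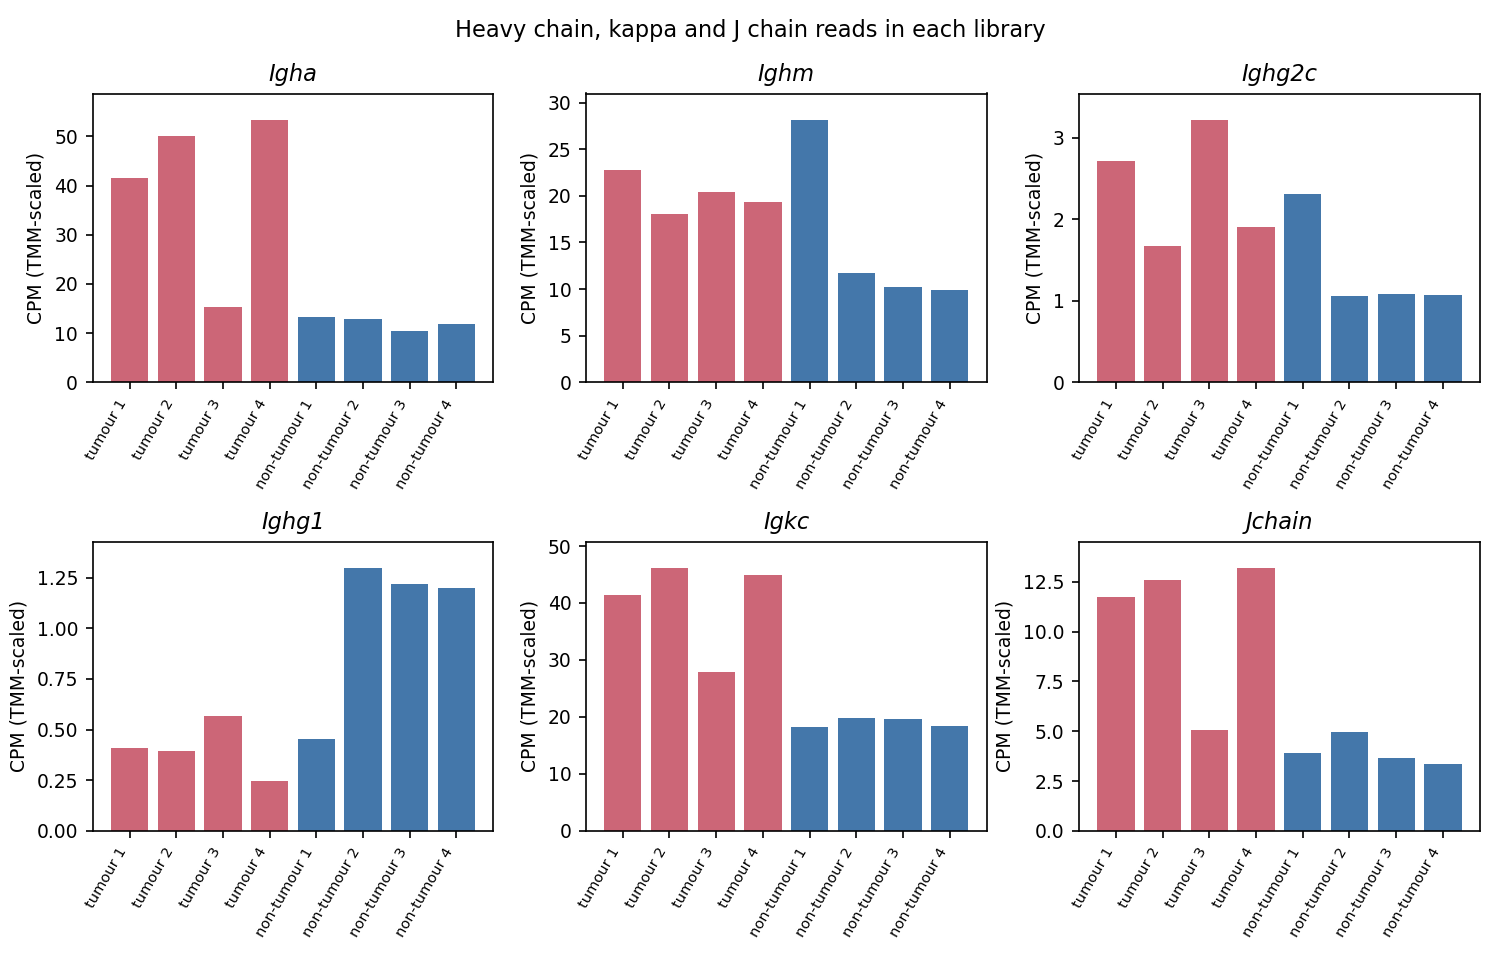
Level of 6 genes in each library, in CPM on TMM-scaled library sizes, each panel with its own axis from 0; red bars are tumour libraries and blue bars non-tumour libraries. Igha, Igkc and Jchain are high in tumour 1, 2 and 4, Ighm is highest in non-tumour 1 at 28.2 CPM, and Ighg1 is at 1.20 to 1.30 CPM in non-tumour 2, 3 and 4, against at most 0.568 CPM in the other libraries.

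Over all genes, the comparison of the 5 profiles called few: 0 of 13650 genes tested (0.0%) passed an adjusted p of 0.05, while 451 (3.3%) had an unadjusted p under 0.05, 277 of them higher in tumour (2.03%). DESeq2 called 2 genes (0.0147%), with 577 (4.23%) at an unadjusted p under 0.05; 0 of those called were immunoglobulin genes. Of the 200 members with reads, 20 passed the filter on low counts, namely 11 constant or J chain genes and 9 V genes. Of these 20, 0 were called by edgeR, and Igkc, Jchain, Igha and Iglc1 had an unadjusted p under 0.05. Every tumour profile was above every non-tumour profile for 7 of the 20 (Igha, Igkc, Jchain, Iglc1, Iglc2, Iglc3 and Igkv10-96), and the reverse held for 0; over all genes tested these shares were 9.46% and 8.89%. A gene that is high in a group passes the low-count filter more readily through that group, so these counts describe the 20 genes and not all members. With the 8 libraries as separate samples, which counts repeated libraries as replicates, 56 of 12880 genes (0.435%) and 1 of 12 members tested were called. That member was Igkc (log2 fold change 1.09, edgeR adjusted p = 0.0312, and 0.00281 to 1.00 over 13 alternatives). In that fit the log2 fold change was 1.74 for Igha and 1.44 for Jchain (edgeR adjusted p = 0.0662 and 0.0742). Over their 13 alternatives the log2 fold changes ran from 1.19 to 1.91 for Igha, 0.88 to 1.21 for Igkc and 1.08 to 1.64 for Jchain, and the adjusted p from 1.1e-07 to 1.00 for Igha and from 0.00387 to 1.00 for Jchain. Without tumour 3, 5 of 13990 genes (0.0357%) and 0 members were called. Without the filter on low counts, 427 of 24531 genes (1.74%) and 7 members were called, namely Igha, Igkc, Jchain and 4 V genes that were highest in tumour 2/4.

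Class use varied widely among the tumour profiles. IgA took 58.2% of heavy chain constant reads in tumour 1 (exact 95% binomial interval 55.8% to 60.7%), 68.0% in tumour 2/4 (66.3% to 69.6%) and 34.8% in tumour 3 (31.3% to 38.5%). It took 27.6% in non-tumour 1 (24.8% to 30.6%) and 42.5% in non-tumour 2/3/4 (39.8% to 45.2%). IgA was thus the largest class in tumour 1, tumour 2/4 and non-tumour 2/3/4, and its share in tumour 3 lay between those of the 2 non-tumour profiles. The difference in mean share was 18.6 percentage points (two-sided exact permutation p = 0.4, n = 3 and n = 2). These intervals, and those below, treat each read as independent and do not cover the spread between pieces or mice. Reads amplified by PCR are not independent molecules, so the intervals can be too narrow even for counting error.

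IgM showed the opposite order. Its share was 31.9%, 24.6% and 46.1% in tumour 1, tumour 2/4 and tumour 3, against 59.1% and 38.2% in non-tumour 1 and non-tumour 2/3/4, and it was the largest class in tumour 3 and non-tumour 1. IgD, which naive B cells display with IgM, took 2.85%, 2.96% and 4.14% in the same tumour profiles and 4.11% and 4.61% in the non-tumour profiles. The Ighd level itself was 2.04 ± 0.21 CPM in tumour profiles and 1.62 ± 0.48 CPM in non-tumour profiles (SD, n = 3 and n = 2), overlapping ranges with a log2 fold change of 0.35 ± 0.35 (SE; edgeR adjusted p = 0.995).

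IgG took 7.03%, 4.50% and 15.0% of heavy chain constant reads in tumour 1, tumour 2/4 and tumour 3, against 9.18% and 14.7% in non-tumour 1 and non-tumour 2/3/4. Its subclasses, which differ in how they engage Fc receptors and complement, set non-tumour 2/3/4 apart. Ighg1 took 8.11%, 9.29% and 8.57% of IgG reads in tumour 1, tumour 2/4 and tumour 3, against 10.3% in non-tumour 1 and 30.4% in non-tumour 2/3/4, where the interval was 24.0% to 37.4%. Ighg2c, the C57BL/6 counterpart of IgG2a in other strains, took 54.1%, 52.1% and 48.6% in the tumour profiles, against 52.9% in non-tumour 1 and 26.3% in non-tumour 2/3/4. Ighg2b varied less, from 36.4% to 41.0% in tumour profiles, against 33.3% and 39.2% in non-tumour profiles.

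By read number, Ighg1 had 9, 8, 9 and 5 reads in tumour 1 to 4, against 9, 22, 18 and 19 in non-tumour 1 to 4. The 3 near-identical non-tumour libraries held more Ighg1 reads than each of the other 5. Fitted log2 fold changes were -1.06 ± 0.58 for Ighg1, 0.62 ± 0.47 for Ighg2c and 0.32 ± 0.42 for Ighg2b (SE; edgeR adjusted p = 0.995 for each). These values moved when a profile was left out. Ighg1 was at -0.11 without non-tumour 2/3/4 and -1.56 without non-tumour 1, Ighg2c was at 0.14 and 1.24 in the same fits, and Ighg2b was at 0.57 without tumour 2/4 and 0.0051 without tumour 3. Ighg3 had 0 to 3 reads in tumour libraries and 1 to 4 in non-tumour libraries, too few to test. The IgG genes are related in sequence, and reads that fitted more than 1 of them equally well were not counted, which leaves their levels uncertain.

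**Figure D2:**
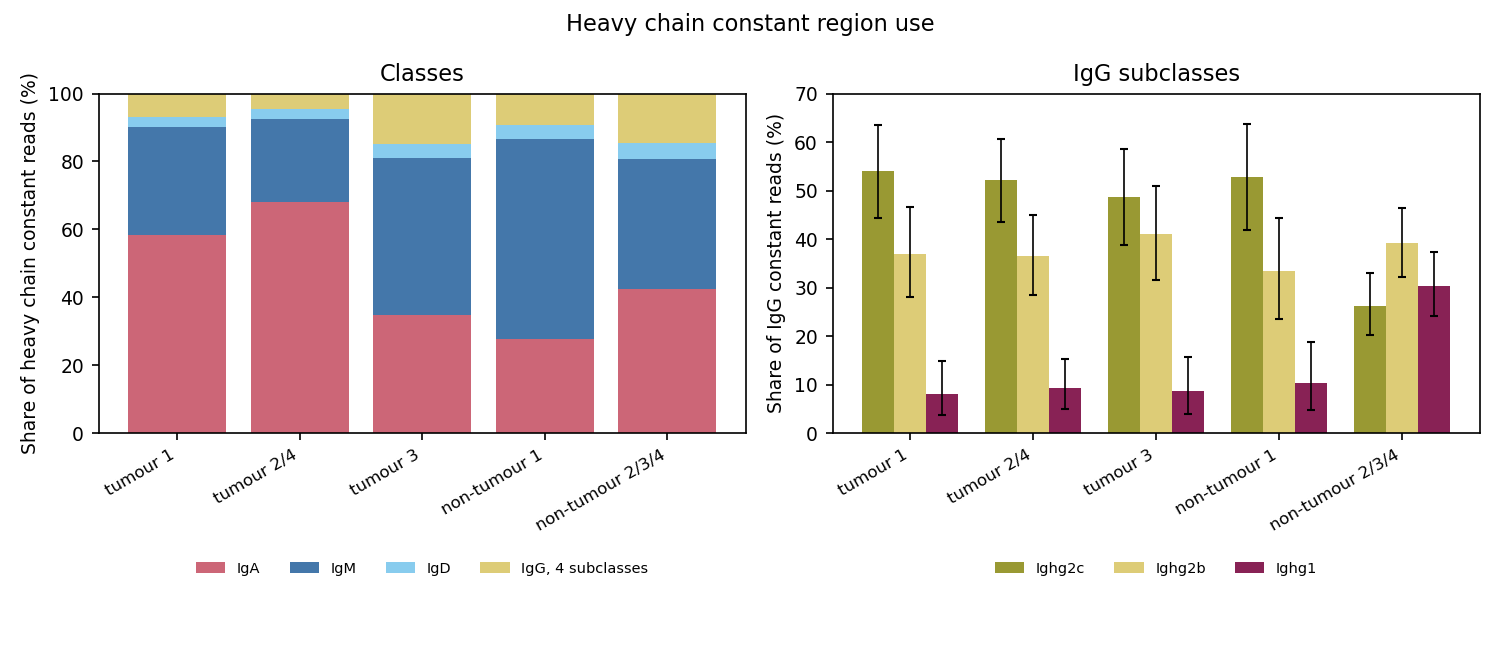
Left, share of heavy chain constant reads by class in the 5 profiles, in percent. Right, share of IgG constant reads by subclass with exact 95% binomial intervals as bars; Ighg3, under 5% of IgG reads in each profile, is left out, and Ighg1 reaches 30.4% in non-tumour 2/3/4 against 8.11% to 10.3% in the other profiles.

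Light chain use covered a narrow range. Lambda took 7.95%, 7.92% and 10.2% of light chain constant reads in tumour 1, tumour 2/4 and tumour 3, against 9.95% and 7.92% in non-tumour 1 and non-tumour 2/3/4. Reads shared by Iglc2 and Iglc3 were not counted, so these lambda shares can be too low in each profile. The mean difference was -0.25 percentage points (two-sided exact permutation p = 0.8, n = 3 and n = 2), and its sign turned under 5 alternatives. Iglc1, a constant region joined to Iglv1, had 36, 46, 27 and 51 reads in tumour 1 to 4, against 23, 12, 6 and 12 in non-tumour 1 to 4, with no overlap between the groups; its log2 fold change was 1.13 ± 0.44 (SE; edgeR unadjusted p = 0.0392, adjusted p = 0.995). Iglc2 and Iglc3, close copies of each other whose shared reads were not counted, had log2 fold changes of 0.55 ± 0.43 and 1.09 ± 0.50 (SE; edgeR adjusted p = 0.995 for both). Both overlapped between groups at the level of single libraries. Iglc4 had 0 reads in all 8 libraries.

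Light chain constant level exceeded heavy chain constant level per kilobase in each profile: the ratio was 2.69, 2.89 and 2.76 in tumour 1, tumour 2/4 and tumour 3, against 1.64 and 3.12 in non-tumour 1 and non-tumour 2/3/4. Non-tumour 1, the profile with the most Ighm, had the lowest ratio.

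V genes gave fewer reads than constant regions, in counts not scaled to gene length. In all libraries together there were 1059 Ighv, 1787 Igkv and 113 Iglv reads. Per 100 constant region reads, V genes gave 24.2, 26.0 and 12.5 reads in tumour 1, tumour 2/4 and tumour 3, against 23.2 and 23.4 in non-tumour 1 and non-tumour 2/3/4. The summed V level was 28.2, 32.6 and 9.41 CPM in tumour 1, tumour 2/4 and tumour 3, against 15.7 and 11.4 CPM in non-tumour 1 and non-tumour 2/3/4, so the groups overlapped. Tumour 3 had the lowest V level of the 5 profiles, with 46 Ighv and 99 Igkv reads in all. Its constant region counts, 1192 reads, were close to the 1350 reads of non-tumour 1, which had 111 Ighv and 194 Igkv reads. The cause was not tested.

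The V genes that set the profiles apart are printed here as the germline sequence of the coding part of their V exon (its last 300 bases where it is longer), from the GENCODE M21 transcripts on GRCm38. Capitals mark the germline bases that differ from the most similar other V gene of the same locus. They show how far a read of unchanged germline sequence can tell the gene from its nearest relative. Reads that differ from the germline were not examined, so their effect on the V gene counts is not known. Ighv1-81 (chr12:115920279-115920578, minus strand) led in tumour 1 and non-tumour 1. Ighv6-3 (chr12:114391712-114392011, minus strand), Ighv1-4 (chr12:114487136-114487435, minus strand) and Ighv1-12 (chr12:114615850-114616149, minus strand) marked tumour 2/4. Ighv1-4 and Ighv1-12 were chosen after their values were seen.
Ighv1-81: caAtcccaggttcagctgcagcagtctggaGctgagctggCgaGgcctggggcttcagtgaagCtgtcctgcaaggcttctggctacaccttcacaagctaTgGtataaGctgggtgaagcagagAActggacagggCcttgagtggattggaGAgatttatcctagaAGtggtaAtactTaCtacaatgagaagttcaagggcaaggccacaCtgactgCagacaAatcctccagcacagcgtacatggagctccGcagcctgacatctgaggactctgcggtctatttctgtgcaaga
Ighv6-3: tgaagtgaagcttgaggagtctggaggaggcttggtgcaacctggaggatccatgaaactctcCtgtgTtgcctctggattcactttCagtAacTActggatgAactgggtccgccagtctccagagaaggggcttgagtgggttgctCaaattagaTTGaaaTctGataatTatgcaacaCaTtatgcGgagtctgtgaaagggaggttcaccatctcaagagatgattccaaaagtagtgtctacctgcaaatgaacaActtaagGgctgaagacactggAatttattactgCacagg
Ighv1-4: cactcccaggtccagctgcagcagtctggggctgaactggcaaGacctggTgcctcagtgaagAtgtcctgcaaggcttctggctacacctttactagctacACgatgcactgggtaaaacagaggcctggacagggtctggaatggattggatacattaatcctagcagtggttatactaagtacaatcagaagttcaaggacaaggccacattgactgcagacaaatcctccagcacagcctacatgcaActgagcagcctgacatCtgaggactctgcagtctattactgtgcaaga
Ighv1-12: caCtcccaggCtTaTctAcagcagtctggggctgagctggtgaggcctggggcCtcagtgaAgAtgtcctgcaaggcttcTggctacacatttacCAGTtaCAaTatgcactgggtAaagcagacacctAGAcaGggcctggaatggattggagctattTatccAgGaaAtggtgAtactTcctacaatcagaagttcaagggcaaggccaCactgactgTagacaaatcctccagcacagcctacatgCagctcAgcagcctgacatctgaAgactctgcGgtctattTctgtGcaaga

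Of the kappa genes, Igkv1-110 (chr6:68270968-68271267, plus strand) led in tumour 1 and non-tumour 1, and Igkv16-104 (chr6:68425774-68426072, plus strand), chosen after its values were seen, was found mainly in the same pair. Igkv14-100 (chr6:68519180-68519477, plus strand) led in tumour 2/4, and Igkv6-23 (chr6:70260409-70260706, minus strand) in non-tumour 2/3/4.
Igkv1-110: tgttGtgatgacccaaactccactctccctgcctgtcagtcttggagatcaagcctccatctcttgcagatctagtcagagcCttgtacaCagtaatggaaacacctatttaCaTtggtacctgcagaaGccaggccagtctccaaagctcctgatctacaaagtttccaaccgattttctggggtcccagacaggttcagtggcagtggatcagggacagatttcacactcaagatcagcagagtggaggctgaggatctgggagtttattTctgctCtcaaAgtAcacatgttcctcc
Igkv16-104: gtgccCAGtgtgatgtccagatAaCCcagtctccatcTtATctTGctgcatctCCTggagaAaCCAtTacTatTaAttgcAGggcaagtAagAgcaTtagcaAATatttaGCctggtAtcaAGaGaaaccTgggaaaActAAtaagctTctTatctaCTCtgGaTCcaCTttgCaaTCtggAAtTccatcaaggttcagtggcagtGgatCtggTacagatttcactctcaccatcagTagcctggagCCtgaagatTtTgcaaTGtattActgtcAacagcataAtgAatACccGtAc
Igkv14-100: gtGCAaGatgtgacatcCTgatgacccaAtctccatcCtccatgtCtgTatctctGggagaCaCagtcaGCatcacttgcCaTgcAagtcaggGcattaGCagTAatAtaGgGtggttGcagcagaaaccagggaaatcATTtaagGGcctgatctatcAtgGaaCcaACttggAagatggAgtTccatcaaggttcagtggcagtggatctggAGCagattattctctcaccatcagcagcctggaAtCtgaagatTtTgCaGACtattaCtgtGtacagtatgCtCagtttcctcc
Igkv6-23: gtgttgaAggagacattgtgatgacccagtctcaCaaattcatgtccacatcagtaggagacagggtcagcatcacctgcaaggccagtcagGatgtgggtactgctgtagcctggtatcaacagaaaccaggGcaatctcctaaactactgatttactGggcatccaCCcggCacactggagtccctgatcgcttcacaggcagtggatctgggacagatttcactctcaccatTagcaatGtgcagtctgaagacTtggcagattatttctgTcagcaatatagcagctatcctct

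The nearest relatives were Ighv1-85 for Ighv1-81 (92.8% identity over the coding part of the exon), Ighv6-6 for Ighv6-3 (92.9%), Ighv1-7 for Ighv1-4 (97.7%) and Ighv1-15 for Ighv1-12 (88.5%). For the kappa genes they were Igkv1-117 for Igkv1-110 (96.8%), Igkv11-125 for Igkv16-104 (75.2%), Igkv14-111 for Igkv14-100 (81.5%) and Igkv6-13 for Igkv6-23 (96.0%). Among V genes with reads, the median identity to the nearest relative was 95.77% for Ighv and 95.05% for Igkv. Of the 95 Ighv genes with reads, 12 had a relative of 98% identity or more, 2 of them an identical one, as did 7 of the 90 Igkv genes with 0 identical. The counts of those genes are uncertain, because reads that match more than 1 gene equally were left out.

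Ighv6-3 showed how strongly a single V gene could mark a profile. It had 13, 36, 0 and 39 reads in tumour 1 to 4, against 3, 1, 1 and 0 in non-tumour 1 to 4. It took 14.6% of Ighv reads in tumour 2/4 (exact 95% interval 11.7% to 17.9%) and 5.94% in tumour 1. Its share was 2.70% in non-tumour 1 and 1.18% in non-tumour 2/3/4. With 0 of 46 reads, tumour 3 allows a share of up to 6.52%, taking 3 counts as the limit of a count of 0. The exact 95% interval there reaches 7.71%. A log2 fold change of 3.35 ± 1.53 (SE) had an edgeR adjusted p of 0.995, and the tumour profiles spanned the non-tumour ones.

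Ighv1-4 had 23 reads in tumour 2 and 23 in tumour 4, and 0 in each of the other 6 libraries. Ighv1-12 had 15 and 14 reads in tumour 2 and tumour 4, and Ighv1-22 had 8 and 3, again with 0 in the other 6. In tumour 2/4 Ighv1-4 took 8.95% of Ighv reads. With 3 counts as the limit of a count of 0, tumour 1 and tumour 3 allow up to 1.37% and 6.52%. By the same limit, the non-tumour profiles allow up to 2.70% and 1.78%. These were the only 3 V genes with 10 or more reads that were found in a single profile, and they were named after their values were seen.

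Igkv14-100 had 3, 50, 0 and 60 reads in tumour 1 to 4, against 6, 1, 1 and 0 in non-tumour 1 to 4. It took 14.4% of Igkv reads in tumour 2/4 (12.0% to 17.1%) and 0.789% in tumour 1, against 3.09% in non-tumour 1 and 0.570% in non-tumour 2/3/4. Igkv9-120, also named after its values were seen, had the same profile, with 34 and 37 reads in tumour 2 and tumour 4, 0 to 2 in the other tumour libraries, and 1 to 4 in non-tumour libraries. Tumour 2 and tumour 4 carried each of these genes at like numbers, but as near-identical libraries they are not independent.

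Ighv1-81 had 26, 9, 3 and 9 reads in tumour 1 to 4, against 13, 1, 2 and 0 in non-tumour 1 to 4. Its share of Ighv reads was 11.9% in tumour 1 and 11.7% in non-tumour 1, and 3.50%, 6.52% and 1.78% in tumour 2/4, tumour 3 and non-tumour 2/3/4. Ighv1-59 was likewise high in tumour 1, at 8.22%, and in non-tumour 1, at 4.50%. The log2 fold change of Ighv1-81 was 0.95 ± 1.11 (SE; edgeR adjusted p = 0.995), and it was -0.11 without non-tumour 2/3/4, 0.10 without tumour 1 and 3.19 without non-tumour 1.

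Igkv1-110 took 16.8%, 9.70% and 1.01% of Igkv reads in tumour 1, tumour 2/4 and tumour 3, against 13.4% and 4.84% in non-tumour 1 and non-tumour 2/3/4. Igkv1-117, its nearest relative, took 10.5%, 4.85% and 6.06% in the tumour profiles, against 9.28% and 3.70% in the non-tumour profiles. Both were highest in tumour 1 and next highest in non-tumour 1. Igkv16-104 had 35 reads in tumour 1 and 9 in non-tumour 1, and 0 or 1 in each of the other 6 libraries, which gave 9.21% of Igkv reads in tumour 1 and 4.64% in non-tumour 1.

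Non-tumour 2/3/4 had leading genes of its own. Ighv1-80 had 2, 3, 0 and 3 reads in tumour 1 to 4, against 1, 7, 5 and 7 in non-tumour 1 to 4. Igkv6-23 had 8, 7, 2 and 7 reads in tumour 1 to 4, against 7, 8, 14 and 13 in non-tumour 1 to 4. Ighv1-80 took 0.913% and 1.17% of Ighv reads in tumour 1 and tumour 2/4, against 0.901% in non-tumour 1 and 11.2% in non-tumour 2/3/4. Its 0 of 46 reads in tumour 3 allow up to 6.52%, with 3 counts as the limit of a count of 0. Igkv6-23 took 2.11%, 1.83% and 2.02% of Igkv reads in the tumour profiles, against 3.61% in non-tumour 1 and 9.97% in non-tumour 2/3/4.

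In tumour 3 the leading genes rested on few reads. Ighv1-56 had 6 of 46 Ighv reads there (13.0%, exact 95% interval 4.94% to 26.3%), and Igkv6-15 had 7 of 99 Igkv reads (7.07%). Ighv9-3 took 6.52% of Ighv reads in tumour 3, from 3 reads, and 5.33% in non-tumour 2/3/4. Of the 9 V genes tested, Igkv10-96 was the gene whose tumour profiles all lay above the non-tumour profiles. It had 12, 16, 6 and 26 reads in tumour 1 to 4, against 5, 5, 3 and 7 in non-tumour 1 to 4. By single libraries the groups overlapped, with tumour 3 at 0.379 CPM and non-tumour 4 at 0.441 CPM. The log2 fold change of Igkv10-96 was 1.22 ± 0.60 (SE), with an edgeR adjusted p of 0.995.

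The 3 lambda V genes had 79 reads (Iglv1), 24 reads (Iglv2) and 10 reads (Iglv3) in all. Iglv1 had 16, 19, 1 and 27 reads in tumour 1 to 4, against 4, 3, 3 and 6 in non-tumour 1 to 4. Its level was highest in tumour 1, 2 and 4 and lowest in tumour 3, from 1 read, so the groups overlapped. The log2 fold change of Iglv1 was 1.53 ± 0.94 (SE), with an edgeR adjusted p of 0.995. Iglv1 and Iglv2 share 97.0% of their bases, so reads common to both are missing from both counts.

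**Figure D3:**
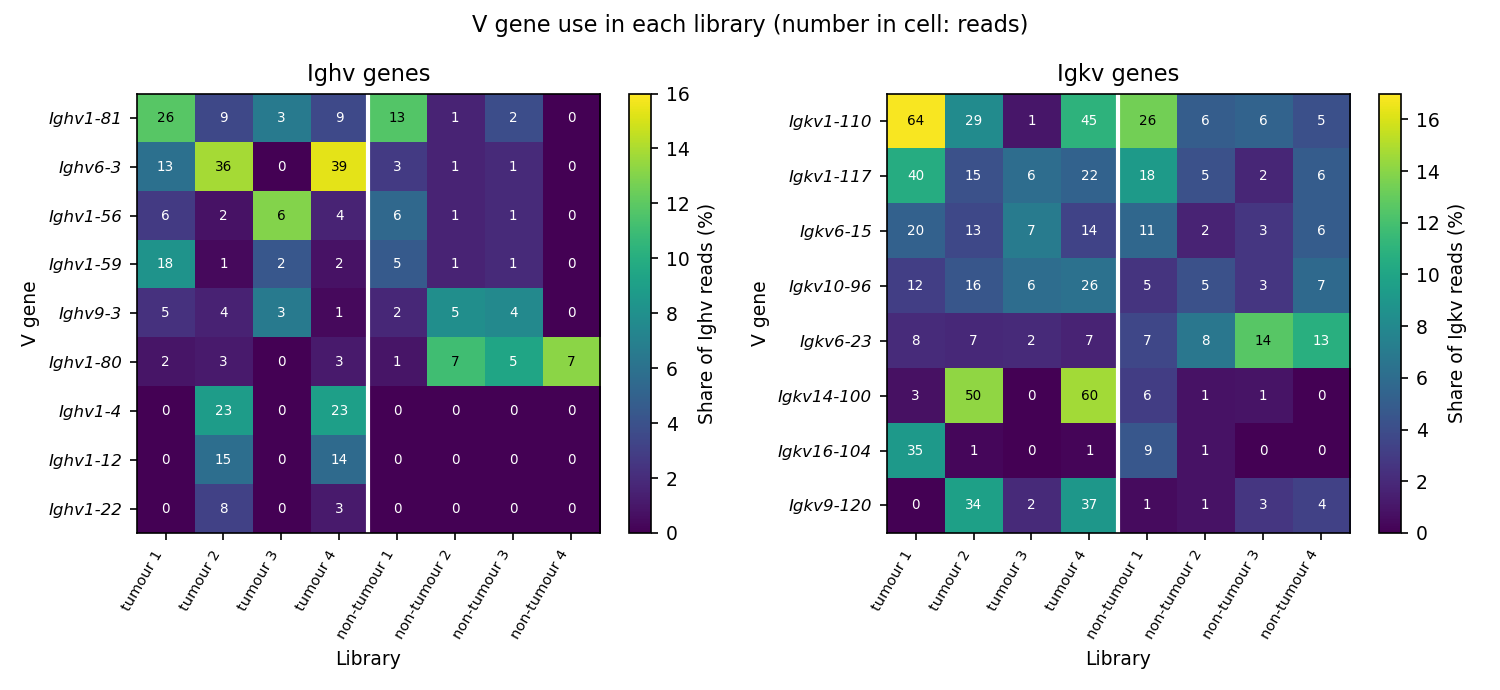
Share of the Ighv reads (left) and Igkv reads (right) of each library taken by the V genes named in the text, in percent by colour, with the number of reads in each cell and a white line between tumour and non-tumour libraries. Tumour 2 and 4 share Ighv6-3, Ighv1-4, Ighv1-12 and Igkv14-100, and tumour 1 and non-tumour 1 share Ighv1-81, Igkv1-110 and Igkv16-104. Not all of these are particular to their pair. Igkv1-110 also took 9.70% of Igkv reads in tumour 2/4, and Ighv6-3 took 5.94% of Ighv reads in tumour 1.

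By family, the large Ighv1 family took 60.3%, 56.8% and 63.0% of Ighv reads in tumour 1, tumour 2/4 and tumour 3, against 63.1% and 62.1% in non-tumour 1 and non-tumour 2/3/4. Kappa families varied more. Igkv1 took 29.7%, 20.3% and 11.1% in the tumour profiles, against 28.9% and 10.8% in the non-tumour profiles, and Igkv6 took 10.7% to 12.1% in tumour profiles, against 11.9% in non-tumour 1 and 25.9% in non-tumour 2/3/4. Igkv14 took 2.37%, 19.7% and 5.05% in the 3 tumour profiles in the same order, against 7.73% and 1.71% in non-tumour 1 and non-tumour 2/3/4.

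V gene use was compared between all pairs of libraries. Over V genes with 10 or more reads in a pair, the chi-square over its degrees of freedom was 0.453 to 1.35 in the 4 near-identical pairs, and 1.39 to 9.05 in the other 24 pairs. The lowest of the 24 were tumour 3 with non-tumour 2, at 1.39 on 5 degrees of freedom, and tumour 3 with non-tumour 4, at 1.70 on 4, close to the highest near-identical value of 1.35. Neither pair had an Ighv gene with 10 reads, so both rest on Igkv alone. These values compare the reads of libraries and not the conditions.

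Tumour 1 and non-tumour 1 had the highest shared V use of the 10 pairs of profiles. Shared use, the sum over V genes of the smaller of both shares, was 70.6% for Ighv in this pair, against 30.2% to 47.7% in the other 9 pairs. For Igkv it was 67.9%, against 43.3% to 56.5% in the other 9. For Ighv their difference was within counting error (chi-square 0.761 per degree, 9 degrees of freedom), and for Igkv it was not (2.60 per degree, 14 degrees of freedom). For Igkv this value was not the lowest: tumour 3 gave 1.62 with non-tumour 2/3/4 and 2.56 with non-tumour 1, from 99 reads in tumour 3. Over all genes the same libraries differed as widely as others, at 101 per degree of freedom.

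In the other libraries that share a number, shared use was 25.2% for Ighv and 45.0% for Igkv in number 2, 33.8% and 47.7% in number 3, and 27.6% and 43.0% in number 4. Over Ighv and Igkv genes together, the chi-square per degree was 1.88 for number 1, 5.30 for number 2 and 6.43 for number 4. In number 3, and in tumour 3 with non-tumour 2 and non-tumour 4, no Ighv gene reached 10 reads. Those values, 2.98, 1.39 and 1.70 in that order, came from Igkv alone, where number 1 had 2.60. For Igkv, the chi-square thus did not set number 1 apart from all other pairs. Shared use grows with the number of reads, and tumour 1 and non-tumour 1 had 219 and 111 Ighv reads, fewer than the 514 and 219 of tumour 2/4 and tumour 1, which shared 47.7%. Whether equal numbers mark pieces of the same mouse is not given in the labels, and whether this pair did was not tested.

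**Figure D4:**
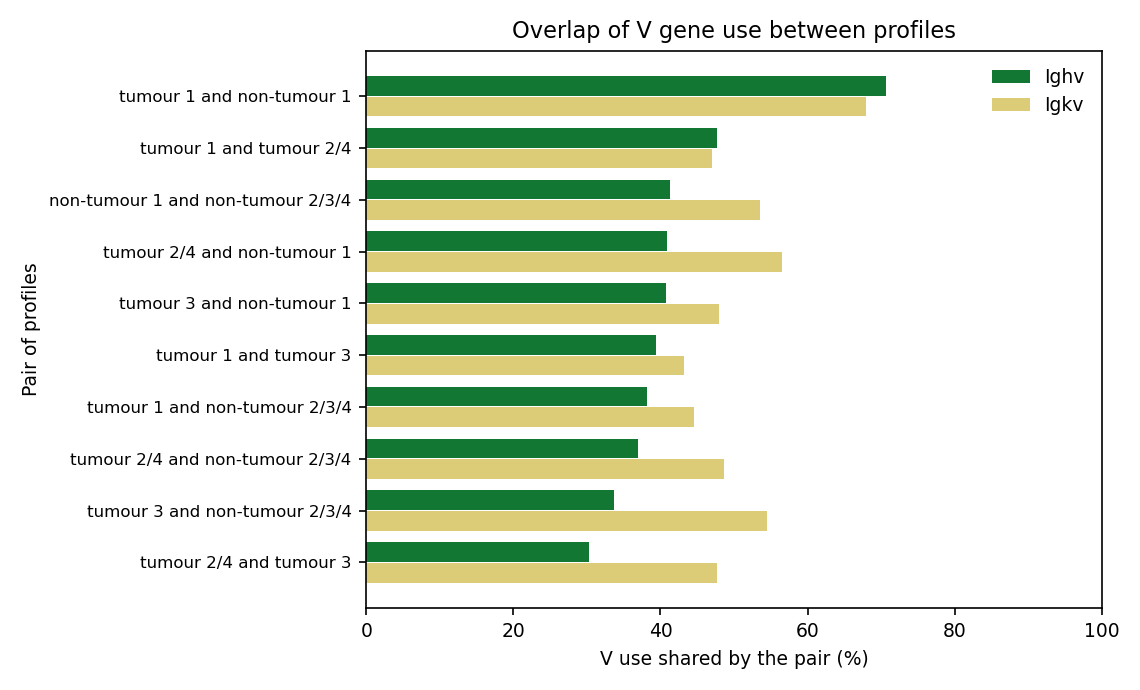
Shared V use of each pair of profiles, in percent, for Ighv (green) and Igkv (yellow). Tumour 1 and non-tumour 1, at 70.6% and 67.9%, have the longest bars at both loci.

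Reads were spread over many V genes in each profile. The inverse Simpson number, the count of equally used genes that would give the same concentration, was 17.0, 18.6 and 47.1 for Igkv in tumour 1, tumour 2/4 and tumour 3, against 24.2 and 33.0 in non-tumour 1 and non-tumour 2/3/4. For Ighv it was 27.6, 23.4 and 35.7 in the tumour profiles, against 34.3 and 31.7 in the non-tumour profiles. At an equal depth of 99 Igkv reads, the expected number of genes found was 36.6, 35.3 and 50.0 in the tumour profiles, against 40.4 and 41.3 in the non-tumour profiles. Tumour 1 and tumour 2/4, the profiles with the most IgA, had the most concentrated kappa use, and tumour 3 the least.

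Few V genes had reads in all profiles, a count limited by depth, since tumour 3 had 46 Ighv and 99 Igkv reads. Of the V genes with reads, 12 Ighv, 26 Igkv and 2 Iglv genes had reads in all 5 profiles, and 22 Ighv and 15 Igkv genes had reads in a single profile. The 26 common Igkv genes held 997 of the 1787 Igkv reads, whereas the 12 common Ighv genes held 282 of the 1059 Ighv reads. Of the 22 Ighv genes with reads in a single profile, 10 were in tumour 2/4, which had the most Ighv reads, 514.

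Markers of the B lineage, a list that includes Ighd, were also counted. Of 17 B cell markers, 14 were tested, 0 were called in either direction, and the median log2 fold change was 0.28, beside 0.01 over all genes tested. Every tumour profile was above every non-tumour profile for 4 of the 14, beside 9.46% of all genes tested, and below for 0, beside 8.89%. The summed level of all 17 was 15.6, 16.0 and 13.1 CPM in tumour 1, tumour 2/4 and tumour 3, against 16.3 and 9.85 CPM in non-tumour 1 and non-tumour 2/3/4. Apart from Ighd, the most abundant were Bank1, a signalling adaptor of B cells, with 42, 37, 18 and 38 reads in tumour 1 to 4 against 53, 28, 23 and 22 in non-tumour 1 to 4, and Cd79b, a signalling chain of the B cell receptor, with 37, 34, 31 and 36 reads against 32, 15, 10 and 20. For Bank1 the groups overlapped, and for Cd79b the lowest tumour library, at 1.67 CPM, was just above the highest non-tumour library, at 1.61 CPM.

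The 15 plasma cell markers summed to 715, 698 and 538 CPM in the tumour profiles, against 612 and 753 CPM in the non-tumour profiles; 14 were tested, 0 were called, and the median log2 fold change was 0.13. The most abundant, Xbp1, Txndc5 and Sdc1, are also made by hepatocytes, so the sum does not follow plasma cells alone. Tnfrsf17, the plasma cell receptor BCMA, had 0 to 2 reads in tumour libraries and 0 or 1 in non-tumour libraries, and Mzb1, a chaperone of antibody assembly, had 5 to 12 reads in tumour libraries and 3 to 11 in non-tumour libraries. At these depths a difference in them was not detectable.

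Genes of the germinal centre and of class switching gave no call in either direction among 4 tested of 9. Rgs13 and Mef2b, both markers of germinal centre B cells, had 0 reads in all 8 libraries. Of the B cell precursor list, Rag1, Rag2 and Vpreb2 had 0 reads. Of the lymphoid organ stroma list, Ccl21a, Glycam1 and Madcam1 had 0 reads, and Ccl19 had 0 to 3 reads in tumour libraries and 0 to 5 in non-tumour libraries. With 3 counts as the limit of a count of 0, each library allows up to 0.137 to 0.174 CPM for such a gene in tumour samples and 0.156 to 0.194 CPM in non-tumour samples.

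Pigr, the receptor that carries polymeric IgA and IgM into bile in rodents, stood at 607, 881, 750 and 856 CPM in tumour 1 to 4, against 930, 1215, 1189 and 1197 CPM in non-tumour 1 to 4. Every tumour library was below every non-tumour library, with tumour 2 closest to non-tumour 1. The log2 fold change was -0.52 ± 0.27 (SE; edgeR adjusted p = 0.995). Of the 11 genes for antibody receptors and transport, 10 were tested, 0 were called, and the median log2 fold change was -0.34.

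Of 16 genes for the homing and survival of plasma cells, 8 were tested, 0 were called, and the median log2 fold change was -0.20. Cxcl12, a chemokine that retains plasma cells in bone marrow, stood at 142, 159, 211 and 165 CPM in tumour 1 to 4, against 203, 308, 302 and 300 CPM in non-tumour 1 to 4. Tumour 3 and non-tumour 1 met, so the groups overlapped (log2 fold change -0.56 ± 0.27, SE; edgeR adjusted p = 0.995). Il5 and Madcam1, which act in gut IgA responses and gut homing, had 0 reads.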

How the data were processed

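Bulk RNA was sequenced from 8 frozen liver pieces, 4 tumour and 4 non-tumour. The deposited values are raw counts per gene, made by the authors with featureCounts 1.6.2 on Ensembl release 95 exons, stranded and leaving out multi-mapping reads, per the file headers. The submitters' processing notes name STAR 2.5.0, Subread 1.6.2 and GRCm38; read length and trimming: not given in the sources used here. Symbols came from a gene name table, which matched 54723 of 54838 IDs; 4 members shared a symbol with another.

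Libraries whose pairwise chi-square fell under 10 for each degree of freedom were summed, and groups came from the titles. For the test, counts of the 5 profiles went into edgeR 4.0.16 under R 4.3.3 (TMM, filterByExpr with minimum count 10 and minimum total 15, robust glmQLFit, glmQLFTest), with Benjamini-Hochberg adjustment over all genes and a threshold of 0.05; the procedure was tested on simulated data. Standard errors are the log2 fold change over the root of F. CPM used the TMM factor of a library's profile. Shares have exact (Clopper-Pearson) 95% binomial intervals from SciPy 1.17.1. V exon sequences came from GENCODE M21 and were aligned with Biopython 1.88. Alternatives were separate libraries with and without a replicate block, DESeq2 size factors, total counts, DESeq2 1.42.0, other filters, 1 library of each profile, and leaving out each profile.

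The members and gene lists were chosen with earlier results of these data known. The text names all constant genes and Jchain, the 5 most used Ighv and Igkv genes, each profile's leading V gene, Iglv genes with reads, and list members that were called or among the 3 most abundant; others are named only as counts of reads or after their values were seen.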

Additional observations from a re-analysis of the deposited data

How the results depend on the processing

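The number of genes called over all genes, 0 with the 5 profiles, was 56 with 8 separate libraries, 2 with DESeq2, 427 without a filter on low counts and 0 to 5 when a profile was left out; the 5 came without tumour 3. The number of immunoglobulin genes called, 0 with the 5 profiles, was 1 with 8 separate libraries (Igkc) and 7 without a filter (Jchain, Igkv14-100, Igkc, Igha, Ighv6-3, Ighv1-4 and Ighv1-12), and 0 in each fit that left out a profile. With a replicate block over the 8 libraries, 0 genes and 0 immunoglobulin genes were called. The deviations of same-numbered libraries from their group means correlated at 0.37, -0.18, 0.31 and -0.17. Because near-identical libraries repeat within both groups and so deviate alike, these correlations cannot decide whether equal numbers mark pairs. The labels do not give pairs, and the numbers were not taken as pairs. The lambda share difference, -0.25 percentage points, was 0.0493 with 8 separate libraries and 0.22 with 1 library of each profile. It was 0.12, 0.132 and -0.997 without tumour 1, tumour 2/4 and tumour 3, and 0.77 and -1.27 without non-tumour 1 and non-tumour 2/3/4, so its direction is not known. The log2 fold change of Ighm was -0.45, and that of Ighv1-81 -0.11, without non-tumour 2/3/4; without non-tumour 1 they were 0.95 and 3.19. The constant region difference stayed between 0.60 and 1.08 in mean log2 CPM, and the IgA share difference between 11.2 and 28.1 percentage points, over their alternatives. Of 205 fold changes of named genes under alternatives, 198 kept their direction and their side of the threshold. The cause of these changes was not tested. V genes of tumour 3, with 46 Ighv reads, are limited by depth.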

Other observations

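Dntt, which encodes the enzyme that adds bases at V segment joints in lymphocyte precursors, had 292, 46, 44 and 58 reads in tumour 1 to 4, against 92, 28, 12 and 23 in non-tumour 1 to 4. Tumour 1 stood above all other libraries and non-tumour 1 above the other non-tumour libraries, while Rag1 and Rag2 had 0 reads throughout. The log2 fold change was 1.09 ± 0.90 (SE; edgeR adjusted p = 0.995).

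Tnfsf13, which encodes the plasma cell survival factor APRIL, had 78, 40, 5 and 30 reads in tumour 1 to 4, against 16, 11, 5 and 9 in non-tumour 1 to 4, and was named after its values were seen. Tumour 1, 2 and 4 were the highest libraries and tumour 3 was level with non-tumour 3 (log2 fold change 1.52 ± 0.89, SE; edgeR adjusted p = 0.995). Ltb, which encodes lymphotoxin beta, had 55, 115, 13 and 106 reads in tumour 1 to 4, against 33, 33, 21 and 26 in non-tumour 1 to 4; tumour 2 and 4 were highest and tumour 3 lowest (log2 fold change 0.83 ± 0.71, SE; edgeR adjusted p = 0.995).

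T cell markers summed to 7.64, 9.84 and 11.3 CPM in tumour 1, tumour 2/4 and tumour 3, against 12.8 and 14.3 CPM in non-tumour 1 and non-tumour 2/3/4. The tumour profiles were all lower, with 11 of 14 genes tested, 0 called and a median log2 fold change of -0.49. Segments not counted among the immunoglobulin genes gave few reads: 8 on Ighj, 7 on Igkj, 2 on Iglj, 1 on Ighe and 0 on the heavy chain D segments.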
